A study of Homo sapiens with 6 samples.

Results

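The Krüppel-like factor genes KLF2, KLF3, KLF4, KLF5, KLF6, KLF7, KLF9, KLF10, KLF11 and KLF13 were described in BT-549 triple-negative breast cancer cells. These 10 genes were taken by symbol from the 19792 genes of the authors' table, and all 10 had a row. The samples were 3 vehicle cultures (0.1% DMSO) and 3 DOX cultures (500 ng/ml doxycycline, 7 days by the study's methods), and all 6 were BT-549 cells with tet-WDR5shRNA, a puromycin-selected vector in which doxycycline switches on an shRNA against WDR5. No cells without the shRNA were among them, so an effect of doxycycline itself and one of the shRNA cannot be told apart. The study asked whether the MUC1-C protein regulates an H3K4 methyltransferase complex of which WDR5 is a subunit. It silenced WDR5 to find genes that respond to loss of WDR5 and of MUC1-C alike. The value used for each gene was the authors' mean normalized count over all 6 libraries, which pools vehicle and DOX cultures. Such a mean lies between the levels of the 2 groups, and the difference between DOX and vehicle was not analysed here. No value of a single library was used, so depth and spread between cultures are unknown here and the levels carry no error. In these bulk samples, fewer cells with a transcript and less of it per cell cannot be told apart.

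Krüppel-like factors are DNA-binding proteins with 3 zinc fingers of the C2H2 type at or near their end. In such a finger a pair of cysteines and a pair of histidines hold a zinc ion. The fingers read GC-rich and CACCC-type sites, which the related SP proteins also bind, and the variable part before them recruits partners. KLF2, KLF4, KLF5, KLF6 and KLF7 are usually grouped as activators that bind acetyltransferases, KLF3 as a repressor that binds CtBP, and KLF9, KLF10, KLF11 and KLF13 as factors that bind the SIN3 and histone deacetylase corepressors. In breast epithelium KLF4 and KLF5 are known for roles in differentiation and proliferation, and KLF4 is one of the factors used to reprogram somatic cells.

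The zinc fingers were found in the coding sequence of the chosen transcript of each gene (GENCODE 44, GRCh38). In all 10 genes the stretch from the first cysteine codon to the last histidine codon had the same length, 81 codons or 243 bases. It is printed for the pairs KLF6 and KLF7 and KLF2 and KLF4, the pairs with the highest identity among the 10 genes. Capitals mark the 12 codons of the zinc-binding cysteines and histidines, and each run is spliced from the exons between the positions given. KLF6 lies at chr10:3779545-3781713 on the minus strand (exons 2 to 4), KLF7 at chr2:207081219-207123846 on the minus strand (exons 2 to 4), KLF2 at chr19:16325960-16327025 on the plus strand (exons 2 and 3) and KLF4 at chr9:107485757-107487100 on the minus strand (exons 4 and 5).
KLF6: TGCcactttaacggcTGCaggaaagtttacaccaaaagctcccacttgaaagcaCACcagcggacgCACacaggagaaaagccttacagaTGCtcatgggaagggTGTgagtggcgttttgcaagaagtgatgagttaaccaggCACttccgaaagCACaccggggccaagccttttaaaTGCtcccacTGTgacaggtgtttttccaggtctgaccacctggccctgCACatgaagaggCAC
KLF7: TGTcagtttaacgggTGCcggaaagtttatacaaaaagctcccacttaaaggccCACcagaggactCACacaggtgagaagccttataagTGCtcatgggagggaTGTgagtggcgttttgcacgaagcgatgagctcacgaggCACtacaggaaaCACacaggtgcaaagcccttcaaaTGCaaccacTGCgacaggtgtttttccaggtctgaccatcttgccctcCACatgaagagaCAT
KLF2: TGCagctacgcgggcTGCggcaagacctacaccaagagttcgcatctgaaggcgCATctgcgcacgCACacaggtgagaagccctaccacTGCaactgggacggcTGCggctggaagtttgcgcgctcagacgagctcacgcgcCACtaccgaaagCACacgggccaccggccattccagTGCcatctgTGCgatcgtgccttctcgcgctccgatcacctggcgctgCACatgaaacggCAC
KLF4: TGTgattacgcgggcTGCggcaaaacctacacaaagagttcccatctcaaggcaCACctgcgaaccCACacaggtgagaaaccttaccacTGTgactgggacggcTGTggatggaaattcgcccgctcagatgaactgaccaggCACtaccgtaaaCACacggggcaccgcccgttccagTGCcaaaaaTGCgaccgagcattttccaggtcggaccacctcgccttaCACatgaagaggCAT

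Of the 243 bases, KLF6 and KLF7 shared 83.5% and KLF2 and KLF4 shared 78.6%. At codon positions 1 and 2 both pairs were 94.4% identical. At codon position 3 the identity was 61.7% for KLF6 and KLF7 and 46.9% for KLF2 and KLF4. In level these pairs were far apart. Per kb of transcript, the level of KLF6 was 17.6 times that of KLF7, and that of KLF4 was 30.2 times that of KLF2. The pairs KLF10 and KLF11 (78.2% identical) and KLF9 and KLF13 (75.3% identical) had level ratios of 2.19 and 1.44. Outside the 10 genes, KLF14 and KLF16 were 84.8% identical, with levels of 6.75 and 569 per kb. KLF2 was closer to KLF1 (81.9% identical) than to KLF4. The pairs and their ratios thus depend on which genes are in the set, and with 10 genes they are a description only.

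Over the 45 pairs of the 10 genes, the median identity of the zinc finger stretch was 65.0%, with a range from 55.1% (KLF3 and KLF9) to 83.5% (KLF6 and KLF7). At 85 of the 243 positions all 10 genes had the same base. Within the 5 genes of the acetyltransferase-binding class the median over 10 pairs was 70.4%, and within the 4 SIN3-binding genes it was 69.5% over 6 pairs. Between these classes it was 61.1% over 20 pairs. KLF3, the CtBP-binding gene, had a median of 68.3% with the first class and 58.8% with the second. The bases between the fingers and the stop codon also differed by class. KLF2, KLF4, KLF6 and KLF7 ended 1 codon after the last histidine, KLF5 2 codons and KLF3 3 codons after it, whereas KLF9, KLF10, KLF11 and KLF13 had 19, 29, 36 and 39 further codons.

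**Figure D1:**
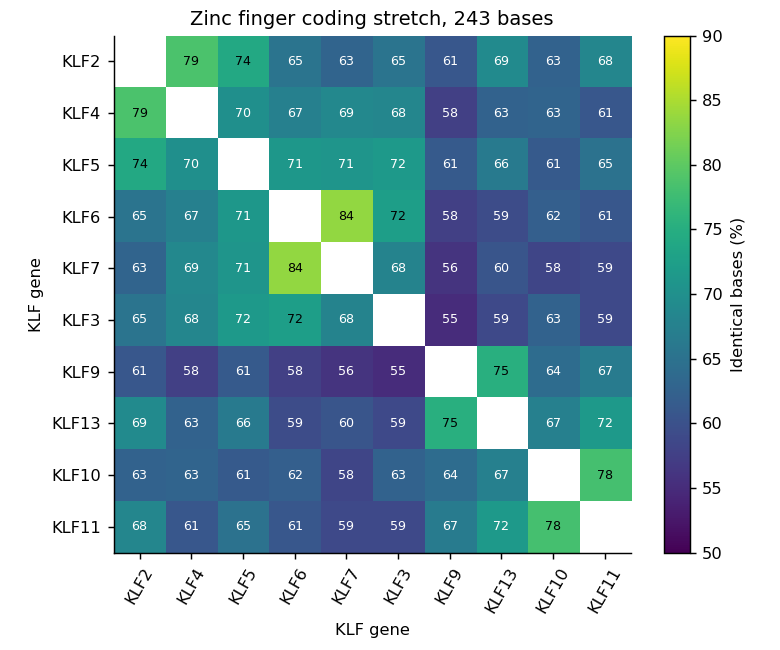
Identity of the zinc finger coding stretch (243 bases) between the 10 KLF genes, in percent of identical bases (colour and printed value) for each pair. KLF6 with KLF7, KLF2 with KLF4, KLF10 with KLF11 and KLF9 with KLF13 are the 4 pairs with the highest identity (83.5%, 78.6%, 78.2% and 75.3%), and KLF3 with KLF9 is the lowest (55.1%).

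The similarity bears on the levels, since reads from a stretch shared by several genes cannot be assigned with certainty. The longest run of identical bases between transcripts of any pair of the 10 genes was 26 bases, between KLF6 and KLF7, and the median over pairs was 14. Among all KLF genes compared, which included KLF18 but not KLF12, it was 34 bases, between KLF14 and KLF16. Chosen transcripts of 62700 genes were searched for runs of 50 bases in common with the 10 genes. No member shared such a run with another protein-coding gene. KLF7 shared 16 of its 8316 runs with the processed pseudogene KLF7P1. KLF4 and KLF11 shared 182 of 2887 and 367 of 3986 runs with long non-coding RNA genes on the opposite strand, ENSG00000289987 and ENSG00000271787. Exons of KLF3, KLF4 and KLF11 overlap exons of genes on the opposite strand over 263, 277 and 416 bases, and the partner of KLF3 is KLF3-AS1, which is listed with a mean normalized count of 10.3. The libraries were stranded, but whether the counting used the strand is not given in the sources used here, so the origin of reads in these overlaps is uncertain. The levels of KLF3, KLF4 and KLF11 carry this limit.

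The mean normalized counts spanned from 16122 for KLF6 to 82.7 for KLF2. KLF6 was the 186th highest of all listed genes and had 4.07 times the count of the next member, KLF5. The counts of the 10 genes made up 0.123% of the sum over all genes. A count grows with transcript length, and the chosen transcripts ran from 2820 bases for KLF2 to 8365 bases for KLF7. Levels were therefore compared between genes per kb of transcript. Ranks, ratios and shares given as counts are not corrected for length. Division by length changed the place of 5 of the 10 genes in the order. KLF3, with 2913 counts on 5594 bases, fell from the third place to the fifth, and KLF7, with 1669 counts, from the sixth to the seventh.

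**Figure D2:**
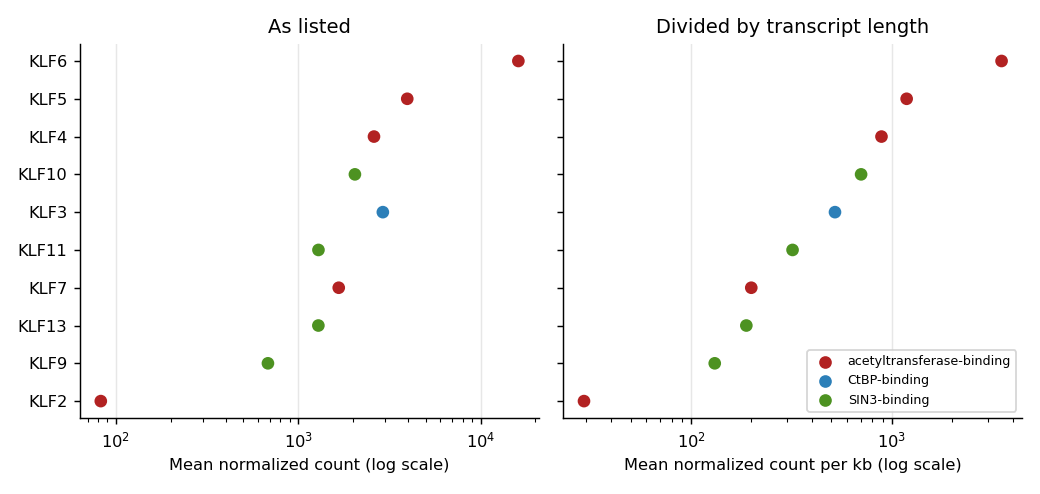
Mean normalized count over all 6 libraries (left) and the same divided by transcript length in kb (right) for the 10 KLF genes, on log axes, ordered by the right panel and coloured by protein class, with 1 point per gene and no error. KLF6 is highest and KLF2 lowest in both panels, while KLF3 and KLF7 stand to the right of the gene above them in the left panel only.

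The place of each gene was expressed as a percentile among 13228 genes that had a matched transcript and a mean of 10 or more normalized counts, whose median level was 207 per kb. The median over the 10 KLF genes was 420.4 per kb. Of the 10 genes, 6 lay above this median, 4 of them (KLF6, KLF5, KLF4 and KLF10) had percentiles from 79.1 to 96.5, and KLF6 was in the top 10%. The levels of KLF7 and KLF13 were just under the median, and with the longest transcript or the union of exons as length the count above the median rose to 8 and 9. It was also 9 when the median was taken over all matched genes above 0.

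**Figure D3:**
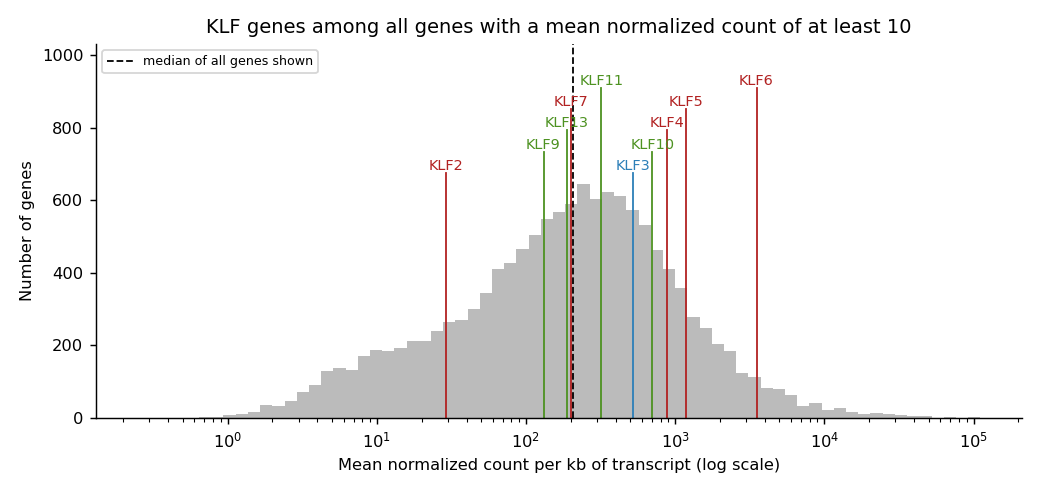
Number of genes by mean normalized count per kb of transcript (log axis) for the same 13228 genes, with a vertical line for each of the 10 KLF genes, coloured by protein class as in the plot of member levels. The dashed line is the median of 207 per kb, KLF7 and KLF13 sit just left of it, KLF6 lies in the right tail and KLF2 on the left flank.

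Among the activators, KLF6 had the highest level. KLF6, a broadly expressed factor known as a candidate tumor suppressor and an injury-response gene, lies on chromosome 10 from 3775996 to 3785281 (minus strand). Its level was 3512 per kb, at the 96.5 percentile. This was 45.8% of the summed level of the 10 genes and 2.97 times the level of KLF5. Of its 4590 transcript bases, 77.2% are 3′ untranslated, and its 283 codons are fewer than those of the other activators.

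KLF5, which drives proliferation in many epithelia, lies on chromosome 13 from 73054976 to 73077541 (plus strand). It had 3964 counts and a level of 1184 per kb, at the 87.8 percentile. KLF4, the reprogramming factor, lies on chromosome 9 from 107484852 to 107490482 (minus strand). It had 2604 counts and a level of 887 per kb, at the 83.4 percentile. The level of KLF5 was 1.33 times that of KLF4, and with no measure of spread it is not known whether the 2 genes differ beyond the variation between cultures.

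KLF7, known for roles in neurons and fat cells, lies on chromosome 2 from 207074137 to 207173856 (minus strand). Its 1669 counts fell on a transcript that is 84.6% 3′ untranslated, and its level of 199.5 per kb was at the 49.1 percentile. KLF2, a factor best known in endothelial cells and T lymphocytes, lies on chromosome 19 from 16324826 to 16328685 (plus strand). With 82.7 counts on a transcript of 2820 bases it had a level of 29.3 per kb, at the 16.6 percentile. Its percentile depended on the genes compared, with 6.23 among genes of at least 50 mean normalized counts and 40.1 among all matched genes above 0. KLF9, the next member above it, had 4.47 times its level, which was the largest step in the order. KLF6 had 119.7 times its level. The activator class, 5 of the 10 genes, thus held both ends of the range and 75.7% of the summed level. KLF6 alone made up 45.8% of the summed level.

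KLF3 was the only CtBP-binding gene among the 10. It is known for repression in fat, blood and muscle cells and lies on chromosome 4 from 38664197 to 38701517 (plus strand). Its level was 521 per kb, at the 72.6 percentile, and 6.78% of the summed level.

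The 4 SIN3-binding genes spanned a narrower range than the activators, with 5.35 times between the highest and the lowest, and held 17.5% of the summed level. KLF10, an early response gene of TGF-β, had 2047 counts on 2915 bases and a level of 702 per kb, at the 79.1 percentile. It lies on chromosome 8 from 102648784 to 102655725 (minus strand). KLF11, its closest relative and likewise linked to TGF-β, lies on chromosome 2 from 10042849 to 10054836 (plus strand) and had 1292 counts and a level of 320.2 per kb, at the 60.8 percentile.

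KLF13, which activates cytokine genes in T lymphocytes, lies on chromosome 15 from 31326835 to 31435665 (plus strand). It had nearly the count of KLF11, 1291, but on a transcript of 6845 bases, of which 81.8% are 3′ untranslated, so that its level was 189 per kb at the 47.7 percentile. KLF7 had 1.06 times the level of KLF13 with this transcript length. KLF9, a target of glucocorticoid and thyroid hormone receptors, lies on chromosome 9 from 70384604 to 70414657 (minus strand). With 683 counts on 5201 bases it had a level of 131 per kb, at the 39.5 percentile. It and KLF13 are the members with 2 exons.

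**Figure D4:**
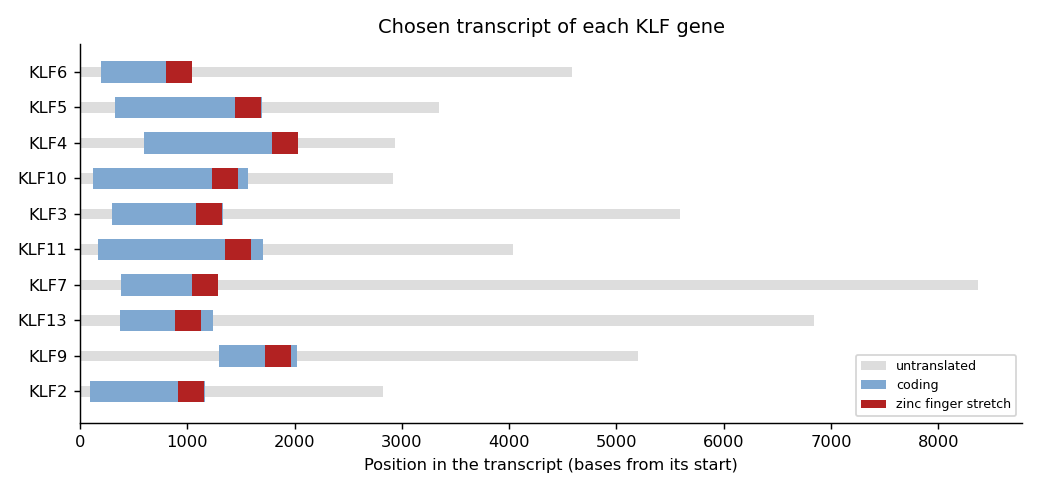
Chosen transcript of each of the 10 KLF genes, drawn to scale in bases from its start and ordered by level per kb with KLF6 at the top, with untranslated parts in grey, coding sequence in blue and the zinc finger stretch of 243 bases in red. KLF7 and KLF13 have the longest 3′ untranslated parts (7076 and 5600 bases), and coding sequence is left after the fingers in KLF9, KLF10, KLF11 and KLF13.

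The other genes of the family were mostly low. Of the 8 other KLF genes, 7 had a row and the level of KLF18 was not analysed here. KLF16, a SIN3-binding factor, had a level of 569 per kb (74.7 percentile), which is above KLF3 and below KLF10. KLF12, a CtBP-binding factor, had 84.8 per kb (30.9 percentile). KLF17 and KLF14 had 9.94 and 6.75 per kb, and KLF15, KLF1 and KLF8 had mean normalized counts of 4.05, 1.35 and 1.24, under the minimum of 10. The 10 genes together held 91.9% of the summed level per kb of the 17 KLF genes listed. Since the 10 genes were chosen with earlier results of these data known, this share may follow from the choice and is a description only.

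The SP proteins share the zinc fingers and the GC-rich sites. SP1 had 539 per kb and SP3 251 per kb, and SP2, SP4 and SP6 had 93.8, 79.8 and 10.4 per kb. SP5, SP7, SP8 and SP9 had mean normalized counts under 10. SP1, a general activator of housekeeping promoters, thus lay between KLF10 and KLF3 in level. Of the summed level per kb of all KLF and SP genes, the 10 KLF genes held 82.3% and SP1 and SP3 together 8.47%. The choice of the 10 genes limits this share in the same way. Against 497 genes with a ZNF symbol that passed the same minimum, KLF6 was above every one and KLF5 above 496. The ZNF genes were taken by symbol alone, and zinc fingers were not searched in them. The ZNF median was 83.9 per kb, and 9 of the 10 KLF genes exceeded it, with KLF2 as the exception at 86 ZNF genes below it. The 10 genes were a chosen set, whereas every ZNF symbol that passed the minimum was taken. Of the other KLF genes that passed the minimum, KLF16 and KLF12 (569 and 84.8 per kb) also exceeded the ZNF median. KLF17 and KLF14 (9.94 and 6.75 per kb) did not.

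The 11 genes listed as partners of KLF proteins all passed the minimum of 10, and 10 of them lay above the median of the comparison genes, with SIN3B as the exception. The acetyltransferase genes EP300, CREBBP, KAT2A and KAT2B lay between 236 and 392 per kb. The CtBP genes CTBP1 and CTBP2 had 1085 and 392 per kb, compared with 521 for KLF3. Among the SIN3 and deacetylase genes, HDAC1 had 1565 per kb, HDAC3 623, HDAC2 571, SIN3A 348 and SIN3B 177. Of 6 genes for ubiquitin ligases known for turnover of KLF proteins, VHL and WWP1, the latter a ligase of KLF5, had 1188 and 631 per kb, and FBXW7 had the lowest level at 85.5 per kb. Of these 6 genes, 4 lay above the median.

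Upstream of the members, the TGF-β receptor genes TGFBR1 and TGFBR2 had 866 and 654 per kb and SMAD3 and SMAD4 217 and 248 per kb, and SMAD2 was the 1 of 5 genes below the median. SMAD2 had a mean normalized count of 2753, above those of SMAD3 (1405) and SMAD4 (2172), and its 79.5 per kb rests on a chosen transcript of 34626 bases. In the ERK5 branch, which induces KLF2 and KLF4 in endothelium, MAPK7 (ERK5) had 307, its kinase MAP2K5 65.5, MEF2A 530.4, MEF2D 262 and MEF2C 59.3 per kb. NR3C1, the glucocorticoid receptor gene upstream of KLF9, had 1601 per kb at the 91.1 percentile, compared with 59.8 and 38.2 per kb for the thyroid hormone receptor genes THRA and THRB. Of genes known as KLF targets, CDKN1A had 801 per kb, SMAD7 162 and S1PR1 79.6 per kb, while the endothelial targets THBD and NOS3 had mean normalized counts of 14.4 and 2.17.

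**Figure D5:**
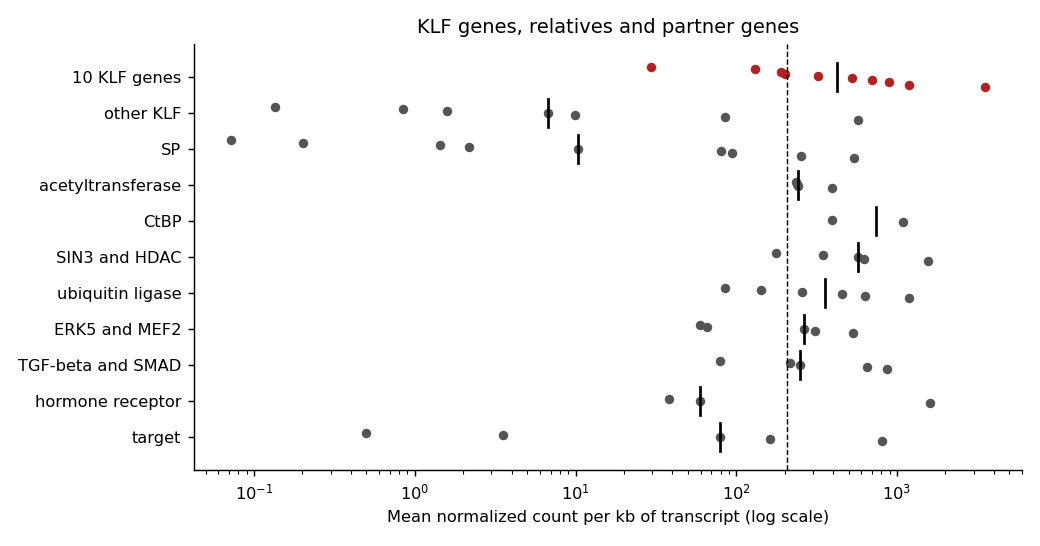
Mean normalized count per kb of transcript (log axis) for the 10 KLF genes (red) and for relatives and partner genes (grey), 1 row per list and 1 point per listed gene, with a bar at the list median and a dashed line at 207 per kb, the median of the comparison genes. The 10 KLF genes spread from 29.3 to 3512 per kb, and the other KLF and SP genes reach down to 0.136 and 0.0724 per kb.

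KLF4 is the member that the study followed as a pluripotency factor. By qRT-PCR the study reported lower KLF4 mRNA after silencing of WDR5, and the level given here pools vehicle and DOX cultures. Of the factors used with KLF4, MYC had 2181 per kb (93.7 percentile), POU5F1 had a mean normalized count of 4.12, and SOX2 was not analysed here. NANOG, another pluripotency gene, was not analysed here either. The labelled cell type was checked with marker genes. VIM, CD44, SPARC, FN1, ZEB1 and AXL, genes of mesenchymal-like breast cancer lines, all lay at or above 1091 per kb. Of 7 epithelial and receptor genes, 3 were under the minimum, with mean normalized counts of 0.790 for ESR1, 0.801 for PGR and 1.30 for EPCAM. CDH1 and KRT8 had 12.4 and 32.1 per kb. ERBB2 and KRT18 had 268 and 308 per kb (56.5 and 59.9 percentile), above the median of the comparison genes, so not all 7 were low. The endothelial genes PECAM1, VWF and CDH5 had mean normalized counts of 2.86, 0.621 and 0.172. The immune genes PTPRC and CD14 had 44.7 and 24.0, and CD3E was not analysed here. WDR5, the targeted gene, had a mean normalized count of 1143 over vehicle and DOX libraries together, and a pooled mean is no check of its silencing.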

How the data were processed

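RNA-seq was performed on 6 cultures of BT-549/tet-WDR5shRNA cells, 3 vehicle and 3 DOX, grouped by the labels. RNA was isolated with a column kit per the labels and with Trizol per the study's methods. Stranded mRNA libraries were aligned to GRCh38 with STAR, and the authors normalized and compared counts with DESeq2. The gene counter and tool versions are not given in the sources used here. The deposited table holds 1 signal value per gene that the authors computed, the mean of the normalized counts over all libraries, and 5 columns of their own comparison of DOX with vehicle (log2 fold change, its standard error, Wald statistic, p-value and adjusted p-value), which were not used. The planned test between the groups needs counts of single samples and was not made. The means sum to 26551206, and the depth of single libraries is unknown.

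Symbols were matched to GENCODE 44 (17729 directly, 899 by RefSeq synonym or letter case, 1164 unmatched). The mean was divided by the length in kb of the MANE Select or canonical transcript, which may differ from the annotation the authors used. C2H2 fingers were searched in frame, with 2 to 4 codons between the cysteines, 12 before the first histidine and 3 to 5 between the histidines. The percentile, finger and shared-run functions were tested on simulated data. The members and gene lists were chosen with earlier results of these data known, and the text names the members, their lists and WDR5. ZNF genes were added later by symbol. Alternatives were other lengths and other comparison genes. Python 3.11.15, numpy 2.4.6, pandas 2.3.3 and matplotlib 3.10.9 were used.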

Additional observations from a re-analysis of the deposited data

How the results depend on the processing

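No paired analysis was possible because the value used is a mean over all libraries, and for the same reason leaving out a culture, another normalization and a filter on counts of single samples were not run. The order of the 10 genes by level per kb was the same with the chosen transcript, the longest transcript and the union of exons. The count of members above the median was 6 with genes of a mean normalized count of at least 50 or with protein-coding genes only, 8 with the longest transcript, and 9 with the union of exons or with all matched genes above 0. The ratio of the highest to the lowest member fell from 119.7 to 89.5 with the union of exons. The members' share of the KLF level was 90.3% with the union of exons, 91.8% with the longest transcript and 92.5% when counts were not divided by length. Over all these settings the percentile ranged from 96.0 to 97.7 for KLF6, 41.7 to 63.8 for KLF7 and 6.23 to 40.1 for KLF2. The planned identity of zinc finger residues was not run, since no protein sequences were used here. Coding bases were compared in their place, a choice made after seeing the data, with a median of 65.0%, or 72.8% at codon positions 1 and 2. Gene counts do not show which transcript was expressed, so a shorter 3′ end would raise the level per kb.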
